A study of Oryza sativa with 5 samples.

Results

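In the male meiocytes of rice, the pollen mother cells, taken in early prophase I, H3K27me3 was described in those stretches of the genome where H3K4me3 regions lie far apart. Regions of a mark were the bases under peaks of both its replicate libraries, with touching pieces joined. A long gap was defined by a distance of at least 100 kb between neighbouring H3K4me3 regions of a chromosome, and its members were the H3K27me3 regions lying wholly within. Of 25703 distances between neighbouring H3K4me3 regions, 375 were long gaps, and they held 1296 of the 16414 H3K27me3 regions (7.90%). The libraries were 2 H3K27me3 and 2 H3K4me3 immunoprecipitations from plants of a cultivar and genotype that the labels leave unnamed, all of the same cell stage and with no treatment named. The labels call the replicates of each antibody biological, and describe chromatin from small numbers of cross-linked cells, trimmed with micrococcal nuclease and then sonicated. An input library belongs to the series of 5 samples and was not analysed here.

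Trimethylation of histone H3 at lysine 4 is laid down around the starts of genes that are being transcribed or are ready to be. Trimethylation at lysine 27 is the product of Polycomb repressive complex 2 and marks silent genes, many of them developmental regulators that are used in other tissues. In plants it commonly covers single genes, and it is a different form of silencing from the DNA methylation and H3K9 methylation found on transposons. A long distance without H3K4me3 is one in which the mark of active gene starts was not called in both replicates, and H3K27me3 within it lies away from such calls.

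Every gap and every member was chosen from the same peak lists that give the values below, so the values are descriptions and no test was made. Only 2 libraries per mark were at hand, and regions, gaps and chromosomes are not replicates. Read depth is unknown, and a deeper library can yield more and wider peaks. Assembly gaps, repeats and the share of reads that can be placed were not examined. Positions are those of the lists. Their build is not stated in any source used here, and no gene, exon, intron, UTR or repeat is therefore named and no sequence shown. The lists carried 19774 and 19450 H3K27me3 peaks and 29941 and 27411 H3K4me3 peaks (replicates 1 and 2). The name "H3K4me3-free" holds for the regions of both replicates only. Wholly inside the long gaps lay 476 H3K4me3 peaks called in a single library, 369 from replicate 1 and 107 from replicate 2. In 142 gaps (37.9%) no H3K4me3 peak of either library lay wholly inside.

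The long gaps were few but took up much of the genome. They were 1.46% of all distances between neighbouring H3K4me3 regions, whose median was 7043 bp, and they summed to 66.0 Mb, which was 17.7% of a genome of 372.8 Mb as measured up to the last peak of each chromosome. The median long gap measured 142 kb, with quartiles of 115 and 200 kb. There were 94 gaps of at least 200 kb and 32 of at least 300 kb. At the threshold itself, the shortest long gaps measured 100.11 kb (chromosome 6, 22699535 to 22799649, no member) and 100.12 kb (chromosome 11, 14975868 to 15075991, 2 members). The longest distances left out measured 99.7 kb each, on chromosome 10 from 16906592 to 17006271 with 4 H3K27me3 regions and on chromosome 2 from 11200213 to 11299886 with 1.

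H3K27me3 was sparser in the long gaps than elsewhere, and both libraries showed it. In H3K27me3 replicate 1, peaks covered 2.77% of the gap bases against 7.77% of the rest of the genome. In replicate 2 the coverage was 2.45% in gaps and 6.38% in the rest. The means were 2.61 ± 0.222% in gaps and 7.07 ± 0.985% in the rest (SD, n = 2 libraries), and the gap values lay below the others without overlap. Peak number went the same way, with 24.5 and 25.8 peaks per Mb of gap in replicates 1 and 2, against 59.2 and 57.8 per Mb in the rest. The regions of both replicates covered 1.85% of the gaps and 5.31% of the rest, a ratio of 0.348. They numbered 19.6 per Mb in gaps and 49.3 in the rest. Of the 15118 regions outside, 21.1% touched an H3K4me3 region of both replicates, which by the rule no member can do. Part of the difference in number is thus fixed by the rule. Density and coverage of the whole rest without those regions were not computed. Regions lying wholly inside shorter distances between H3K4me3 regions also overlap none of both replicates. They numbered 18.3 per Mb in distances under 5 kb, 24.7 at 5 to 10 kb and 40.35 at 10 to 20 kb. At 20 to 50 kb there were 52.2 per Mb, and at 50 to 100 kb 40.1. The 1296 members summed to 1.16 Mb, or 6.62% of all H3K27me3 bases, and a further 108 regions crossed a gap edge and were not counted as members.

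The same order was found within chromosomes. Coverage by the regions of both replicates was lower in gaps than in the rest of the same chromosome on all 12 chromosomes, and so was the coverage in each library taken alone. It was also lower than nearby. In the 100 kb to either side of the gaps, leaving out other long gaps, the regions of both replicates covered 4.25%, with 6.37% and 5.17% for the peaks of replicates 1 and 2. The flanks thus lay between the gaps and the rest of the genome in both libraries.

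H3K27me3 coverage did not fall steadily with the distance between H3K4me3 regions. By the bases of both replicates it was 4.50% in distances under 5 kb, 3.50% at 5 to 10 kb, 5.28% at 10 to 20 kb and 6.17% at 20 to 50 kb, its highest class. It was 4.32% at 50 to 100 kb and 2.50% at 100 to 150 kb, the first class of long gaps. The other classes of long gaps were lower still, with 1.59% at 150 to 200 kb and 1.84% at 200 to 300 kb. At 300 kb and over, where 32 gaps summed to 13.3 Mb, it was 0.851%. The 2 libraries followed the same course, and in the last class they covered 1.41% and 1.23%. The class just below the threshold of 100 kb was thus already lower than that of 20 to 50 kb.

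**Figure D1:**
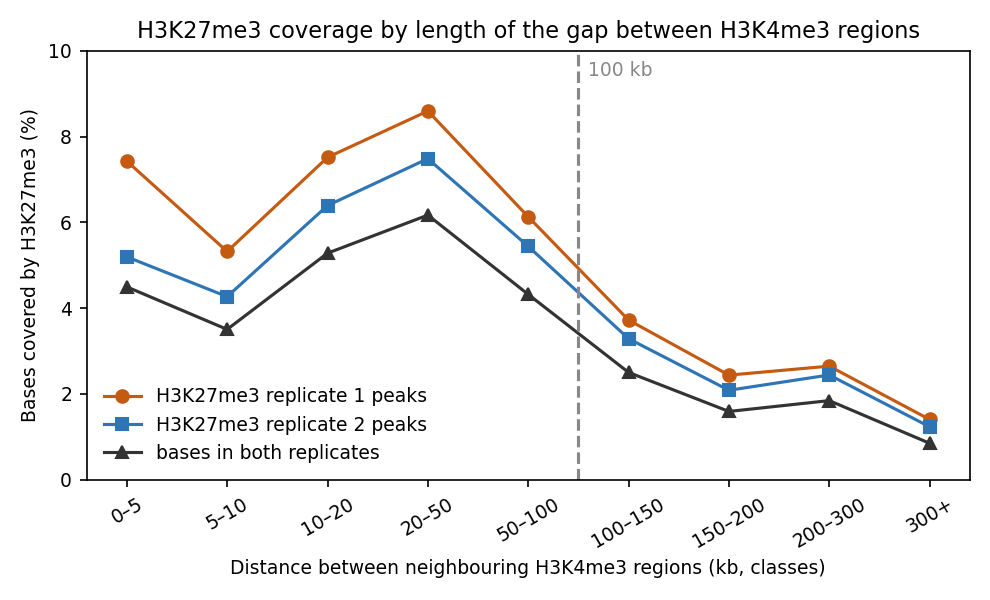
Percent of bases covered by H3K27me3 (vertical axis) in classes of the distance between neighbouring H3K4me3 regions in kb (horizontal axis), for the peaks of each replicate and for the bases in both. Coverage by both replicates is highest at 20 to 50 kb (6.17%), and the 4 classes to the right of the dashed line are the long gaps, the last of them at 0.851%.

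The gaps were concentrated on a few chromosomes, and their place along the chromosome varied. Chromosomes 4, 11 and 12 held 156 of the 375 gaps and 44.5% of the gap length. The share of a chromosome lying in long gaps was 32.6% on chromosome 12, 32.0% on chromosome 4 and 31.1% on chromosome 11, against 4.71% on chromosome 3 and 5.87% on chromosome 1, the lowest values. Each chromosome was divided into 10 equal parts up to its last peak. Over all chromosomes together, the parts from 3 to 6 held 66.9% of the gap length, and part 9 held 2.41%, the least. Not every chromosome followed this order. On chromosome 4, parts 1 to 5 each lay in gaps for 47.9 to 71.5% of their length, and part 6 for 23.2%. On chromosome 9, parts 1 to 5 had 27.3 to 50.3% and part 6 had 23.0%. Of the 120 parts, 21 had no gap base and 11 lay in gaps for at least 50% of their length.

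Chromosome ends differed in this respect. The first 10% of chromosome 4 lay in gaps for 53.9% of its length and the last 10% of chromosome 11 for 52.0%. The first 10% of chromosomes 2 and 3 and the last 10% of chromosomes 3, 4, 5, 9 and 10 held none. The fullest part of all was part 3 of chromosome 4, with 71.5%, followed by part 6 of chromosome 12 with 64.4%. Whether these parts coincide with centromeres or with heterochromatin was not tested, since no map of either on the build of the lists was used here.

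**Figure D2:**
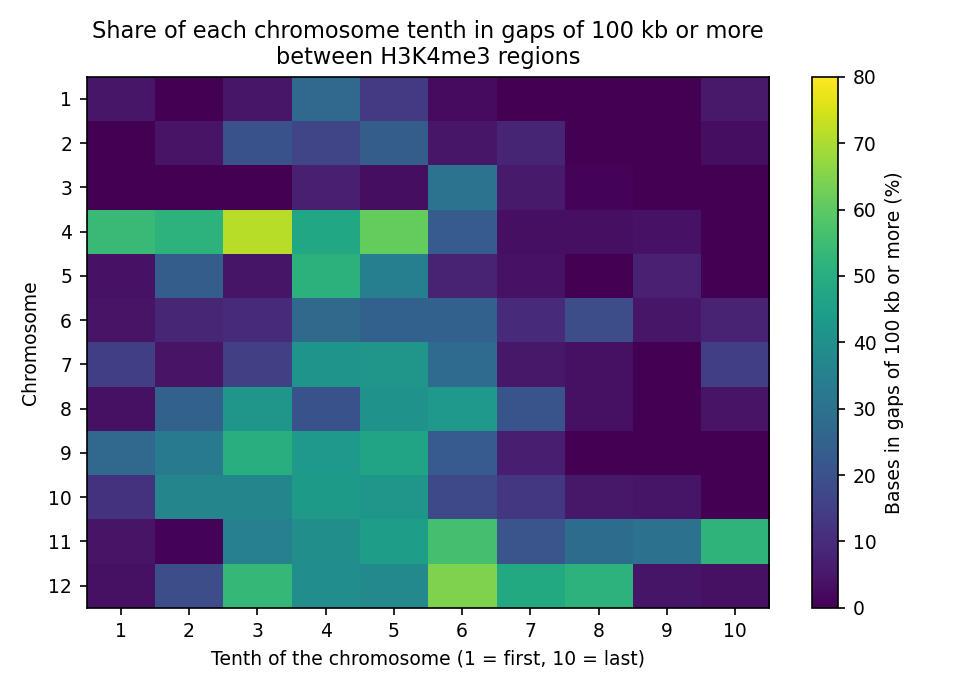
Percent of bases lying in gaps of at least 100 kb between H3K4me3 regions (colour), for each of 10 equal parts (horizontal axis) of the 12 chromosomes (vertical axis). The brightest cells are on chromosome 4 (71.5% in part 3) and chromosome 12 (64.4% in part 6), and chromosomes 1, 2 and 3 are dark along most of their length.

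H3K27me3 coverage inside the gaps varied along the chromosomes. Over all chromosomes together, coverage of gap bases was 1.34%, 1.24% and 1.21% in parts 3, 4 and 5, against 3.44% in part 1 and 3.79% in part 7. It was 2.28% in part 2, 1.77% in part 6, 2.93% in part 8, 2.36% in part 9 and 1.69% in part 10. Single chromosomes differed widely within a part, and few gaps weigh on some of these values. In part 1 coverage ran from 0% on chromosome 12 to 38.0% on chromosome 8, from a gap of 101 kb. In part 7 it ran from 0% on chromosome 9 to 11.4% on chromosome 5, with 8.33% on chromosome 11. In part 4 it ran from 0% on chromosome 3 to 3.45% on chromosome 6. The rest of the genome had 4.74%, 3.48% and 2.42% in parts 3, 4 and 5, 7.10% and 5.76% in parts 1 and 7, and 6.79% in part 10. Gap values were lower than those of the rest in every part. Parts 3, 4 and 5 were the lowest inside gaps, and the last part was low inside gaps but not in the rest.

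Members were spread unevenly over chromosomes. Chromosome 1 had 28.0 members per Mb of gap and chromosome 11 had 26.7, the highest densities. Chromosome 1 had only 17 gaps, however, and 2 of them held 21 and 22 of its 71 members. Chromosome 3 had 7 members in 11 gaps, or 4.08 per Mb, with a coverage of 0.268% of gap bases, the lowest of all. Its gaps had 0.744% and 0.466% coverage in the H3K27me3 replicates 1 and 2, again the lowest in each list, whereas the rest of chromosome 3 had 7.22% and 5.93%. Chromosome 11 had 241 members, the most, followed by chromosome 12 with 193 and chromosome 4 with 190. Together they made up 48.1% of the members, close to their share of the gap length.

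Most long gaps stood alone, but 71 of the 375 adjoined another. Long gaps were 1.46% of all distances between neighbouring H3K4me3 regions. In 304 cases a long gap stood alone, with no other long gap across the H3K4me3 region at its edge, and 71 gaps formed runs in which a single H3K4me3 region separated one gap from the next. The longest run held 5 gaps on chromosome 5 from 9533552 to 10722942, a span of 1.19 Mb with 3 members. A run of 4 gaps on chromosome 4 from 2511933 to 3581219 spanned 1.07 Mb and held 8 members, and another run of 4 on chromosome 9 from 8716588 to 9264330 held 15 in 0.548 Mb. The 710 H3K4me3 regions at gap edges had a median width of 378 bp, against 420 bp for all other H3K4me3 regions.

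Members were concentrated in a minority of the gaps. No member was found in 125 gaps (33.3%), 1 member in 52, 2 in 46, from 3 to 9 in 116 and at least 10 in 36. Those 36 gaps held 561 members, or 43.3% of the total. The median coverage per gap was 0.609%, and 41 gaps (10.9%) lay above the level of the rest of the genome and held 51.8% of the H3K27me3 bases found in gaps. Most gaps were thus nearly bare, and a small number carried as much H3K27me3 per base as the genome outside or more.

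The share of gaps without members changed little with length, though longer gaps held fewer members per Mb. There were 25.8 per Mb at 100 to 150 kb and 16.8 at 150 to 200 kb. At 200 to 300 kb there were 19.5, and at 300 kb and over 10.7. Gaps without members had a median length of 143 kb and gaps with members one of 141 kb. Members were missing from 32.7% of the gaps under 150 kb, from 32.9% of those of 150 to 200 kb and from 35.1% of those of 200 kb and over. Of the 125 gaps without members, 49 had an H3K27me3 peak of at least 1 library wholly inside and 76 had none of either. No peak of any of the 4 lists lay wholly inside 46 gaps, though regions crossing an edge reached into some of them. The number of H3K27me3 peaks per gap was alike in both libraries, with a Spearman rho of 0.898 over the 375 gaps, which share their length and place between libraries.

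The longest gap lay on chromosome 6 from 18165268 to 18806991, a distance of 642 kb with 3 members, 3 peaks in each H3K27me3 library and 1 peak of H3K4me3 replicate 1. Peaks of all 4 lists were missing from 589 kb of it, from 18216100 to 18805134, the longest such stretch in any long gap. The second gap in length lay on chromosome 8 from 6744616 to 7323004 (578 kb) and the third on chromosome 11 from 12077376 to 12640349 (563 kb). They held 2 members and 1.

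The following 7 gaps measured 479 to 530 kb. Their number of members ranged widely. The gap on chromosome 12 from 8159245 to 8688873 (530 kb), the gap on chromosome 4 from 8780492 to 9289322 (509 kb) and that on chromosome 12 from 6169428 to 6677681 (508 kb) held 2 members each. By contrast, the gap on chromosome 12 from 15858840 to 16364989 (506 kb) held 9, that on chromosome 4 from 1151743 to 1653214 (501 kb) held 11, that on chromosome 9 from 6438890 to 6939526 (501 kb) held 18, and that on chromosome 4 from 17359744 to 17838305 (479 kb) held 16. The chromosome 9 gap had 39 and 33 peaks in H3K27me3 replicates 1 and 2. Over the 10 longest gaps there were 66 members in 5.32 Mb, or 12.4 per Mb.

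The gaps richest in H3K27me3 were shorter. The gap with the most members lay on chromosome 8 from 5150348 to 5272635, where 28 members covered 20.5% of 122 kb. It held 30 and 29 H3K27me3 peaks in replicates 1 and 2, and no H3K4me3 peak of either library wholly inside. The highest coverage, 38.0%, was found on chromosome 8 from 797574 to 898142, a gap of 101 kb with 25 members, 24 and 21 H3K27me3 peaks, and 2 peaks of H3K4me3 replicate 1. These 2 gaps on the same chromosome therefore carried several times the coverage of the genome outside gaps, and in both the 2 libraries gave nearly the same number of peaks.

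Other rich gaps were found on chromosomes 1, 2, 4, 10 and 11. The gap on chromosome 1 from 10370430 to 10470684 had 27.1% coverage with 21 members, and that on chromosome 1 from 21743797 to 21847657 had 22 members and 14.4%. The gap on chromosome 11 from 18781582 to 18883788 had 19.3% with 14 members, and that on chromosome 10 from 2588083 to 2733284 had 15.9% with 17. The longest of the rich gaps, on chromosome 4 from 20955343 to 21215079 (260 kb), had 25 members and 13.5%, and on chromosome 2 from 20198001 to 20369122 there were 23 members and 10.4%.

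Inside the gaps H3K27me3 was densest beside the flanking H3K4me3 regions. Within 1 kb of an edge the bases of both replicates covered 7.22%, at 1 to 2 kb 5.26%, at 2 to 5 kb 3.67% and at 5 to 10 kb 2.52%. Between 10 and 75 kb coverage was 1.72% to 2.28%, and it was 0.925% at 75 to 100 kb and 0.644% at 100 kb and over. The last distances come from longer gaps alone, 167 gaps beyond 75 kb and 94 beyond 100 kb. Taken over those 94 gaps only, coverage was 4.44% within 1 kb, 1.64% at 10 to 20 kb, 2.63% at 30 to 40 kb and 0.813% at 75 to 100 kb, so the low level of the centre was also found within the same gaps.

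The libraries differed most next to the edge. Within 1 kb, peaks of H3K27me3 replicate 1 covered 12.9% and those of replicate 2 covered 8.13%, whereas at 100 kb and over the values were 1.08% and 0.935%. Just outside the gaps, in the 10 kb beyond the edge, replicates 1 and 2 covered 8.14% and 6.21%. Replicate 1 had more H3K27me3 peaks on H3K4me3 peaks throughout the lists, and its part in the value at the edge was not tested. Members had a median distance of 31.2 kb from the nearer edge. Of them 261 (20.1%) lay within 10 kb, where 11.4% of the gap length lay, and 359 (27.7%) lay at least 50 kb inside, where 43.2% of the gap length lay.

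**Figure D3:**
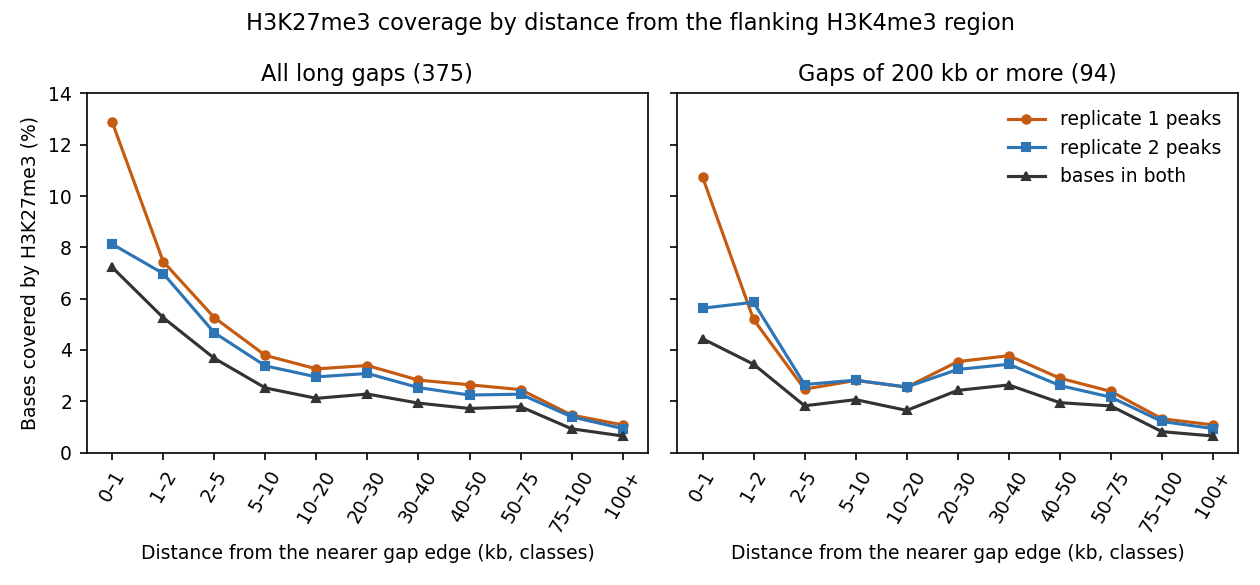
Percent of bases covered by H3K27me3 (vertical axis) in classes of distance from the nearer edge of the gap in kb (horizontal axis), for all 375 long gaps (left) and for the 94 gaps of at least 200 kb (right), with the peaks of each replicate and the bases in both. Coverage by both replicates drops from 7.22% at the edge to 0.644% in the centre on the left, and from 4.44% to the same centre value on the right.

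The 5 members farthest from any H3K4me3 region of both replicates measured 187 to 2009 bp. The farthest lay on chromosome 11 from 12352041 to 12352843 (803 bp), 275 kb from the nearer edge, and was the only member of its gap. Its peak had the highest fold enrichment of the whole H3K27me3 replicate 2 list, 12.3, with a −log10 q of 59.4, and a fold of 3.09 with a −log10 q of 4.24 in replicate 1, in the 87.5th percentile of that list. Fold here is the ratio over background that the authors' peak caller wrote. The libraries thus both called the site but ranked it differently. The following 4 lay on chromosome 4, at 1411381 to 1411650, 1412166 to 1412352, 17604093 to 17604334 and 17604641 to 17606649, at 232 to 242 kb from an edge. They formed 2 neighbouring pairs, with a replicate 1 fold of 3.46 for the first pair and 2.82 for the second.

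Members were mostly short. Their median length was 548 bp, with quartiles of 294 and 1079 bp, against a median of 613 bp and quartiles of 325 and 1244 bp for the 15118 regions outside. Regions of at least 2000 bp made up 9.41% of the members (122) and 13.4% of the regions outside, and regions of at least 5000 bp made up 1.00% (13) and 2.37%. The lengths depended on the weaker peaks. With H3K27me3 peaks at a −log10 q of 5 or more alone, 153 members were left, their median was 1649 bp, and 39.9% of them reached 2000 bp. In the full lists, members of at least 2000 bp held 36.3% of the member bases, whereas outside such regions held 47.3%.

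The lengths lay closer together when regions touching H3K4me3 were left aside. By the rule no member touches an H3K4me3 region of both replicates, whereas 21.1% of the regions outside do. Without those, the remaining 11922 regions outside had a median of 545 bp and quartiles of 298 and 1106 bp, close to the members. Of these, 10.9% reached 2000 bp and 1.46% reached 5000 bp, both still somewhat above the members. The longest measured 18306 bp, against 10990 bp for the longest member.

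**Figure D4:**
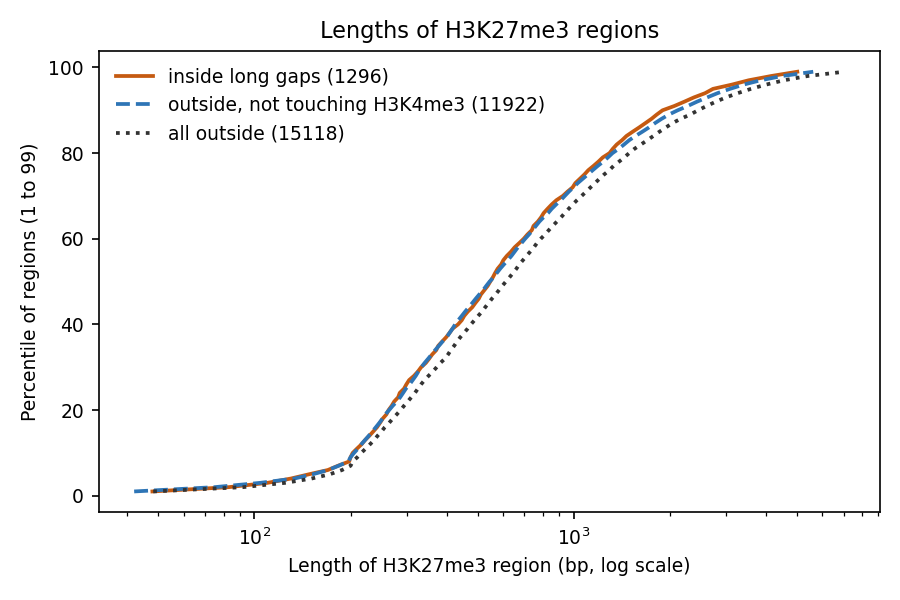
Length of H3K27me3 regions in bp on a log scale (horizontal axis) at each percentile from 1 to 99 (vertical axis), for the 1296 regions inside long gaps, the 11922 regions outside that touch no H3K4me3 region and all 15118 regions outside. The first 2 curves nearly coincide, with medians of 548 and 545 bp, and the third lies to their right with a median of 613 bp.

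The 10 longest members measured 5460 to 10990 bp, and 7 of them lay on chromosomes 4 and 12. The longest covered chromosome 4 from 2226756 to 2237745, 44.2 kb from the edge of a 244 kb gap, with a fold of 3.52 in replicate 1 and 4.05 in replicate 2, ranked at percentiles 95.7 and 99.2 of the lists. The second covered chromosome 7 from 1442803 to 1453332 (10530 bp), with folds of 3.93 and 3.69. The third lay on chromosome 9 from 9945203 to 9953756 (8554 bp) and the fourth on chromosome 12 from 5582518 to 5591007 (8490 bp), and their folds in replicate 2 were 4.27 and 4.31. All 10 had ranks by fold between percentiles 85.8 and 99.7 in both libraries.

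Further down that order, 2 members lay in the same 260 kb gap of chromosome 4, at 21160206 to 21168584 (8379 bp) and 21140496 to 21147167 (6672 bp). Others lay on chromosome 12 from 17302864 to 17310929 (8066 bp), in the gap of highest coverage on chromosome 8 from 840655 to 847863 (7209 bp), on chromosome 4 from 6226408 to 6232599 (6192 bp) and on chromosome 12 from 19779661 to 19785120 (5460 bp). The longest members were therefore among the strongest peaks of their lists, and the one nearest to an edge lay 11.4 kb inside its gap. Among all members the length changed little with the distance from the edge, with a median of 574 bp within 10 kb and 524 bp at 50 kb and over.

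Members ranked above the middle of the lists in fold, which the way they were chosen favours. A region of both replicates needs a peak in each list, inside gaps and outside. Shared peaks in gaps had median ranks at percentiles 61.9 and 63.2 in replicates 1 and 2, and unshared ones at 36.2 and 36.3. Each member was ranked by the highest fold among its peaks. The median rank of members was in the 65.3rd percentile in replicate 1 and the 63.9th in replicate 2. For the regions outside it was in the 67.9th and 57.4th. The order of the groups was therefore opposite in the 2 libraries, though not at every length. Under 500 bp, the largest class with 587 members, they ranked in the 54.5th and 49.2nd percentile and the regions outside in the 50.8th and 39.2nd. At 500 to 1000 bp members ranked in the 67.8th and 61.9th percentile and the regions outside in the 66.3rd and 52.7th. At 1000 to 2000 bp the ranks were 71.4 and 75.5 for members and 79.2 and 70.9 outside, and at 2000 bp and over 84.8 and 91.0 for members and 90.4 and 89.4 outside. Members thus ranked higher in both libraries below 1000 bp, and lower in replicate 1 and higher in replicate 2 above it. Peaks of members reached a −log10 q of at least 5 less often, in 27.3% and 17.8% of members against 40.4% and 22.1% of the regions outside, and 153 members (11.8%) did so in both libraries, against 17.4% outside.

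Members lay in groups along the gap. Of all members 74.9% had another member within 5 kb, and the median distance to the nearest was 942 bp. Outside the gaps, 83.4% had a neighbour within 5 kb and the median was 639 bp. These measures are unlike. A member was compared only with members of its own gap, and a region outside with every H3K27me3 region of its chromosome. At 1 kb the shares were 51.0% and 62.5%. Members were 0.399 times as dense per Mb as the regions outside, and their spacing by these unlike measures was wider. How much of the wider spacing comes from the measure was not tested.

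Joined at distances up to 5 kb, the members formed 325 singles, 163 pairs and 138 groups of 3 or more, which held 49.8% of all members. The largest group lay on chromosome 8 from 827785 to 876971, where 19 members from 15 peaks of replicate 1 and 15 of replicate 2 covered 64.9% of 49187 bp. The second, with 18 members, lay on chromosome 8 from 5206639 to 5249629 (37.6% of 42991 bp). Another, on chromosome 11 from 8581622 to 8613837, held 17 members from 8 peaks of replicate 1 and 17 of replicate 2. Groups of 10 lay on chromosome 8 from 15736834 to 15754530 and on chromosome 7 from 2327298 to 2348207.

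Part of the grouped members were pieces of a single peak in 1 library. Of 670 neighbouring pairs of members within 5 kb, 180 (26.9%) lay under the same peak of replicate 1 and 61 (9.10%) under the same peak of replicate 2. The other 429 pairs (64.0%) lay under separate peaks in both libraries. Replicate 1 peaks in gaps were also the wider ones, with a median of 617 bp against 548 bp in replicate 2.

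Peaks of a single H3K27me3 library were common in gaps. Of the 1615 replicate 1 peaks in gaps, 530 had no replicate 2 peak, or 32.8% (95% Wilson interval 30.6 to 35.1%), against 32.7% (32.1 to 33.4%) of the 18159 peaks in the rest of the genome. Of the 1702 replicate 2 peaks in gaps, 469 had no replicate 1 peak, or 27.6% (25.5 to 29.7%), against 19.5% (18.9 to 20.1%) of 17748. These intervals hold counting error alone, and peaks that lie close together are not independent. The share in gaps was thus above that outside in replicate 2 and close to it in replicate 1, and no test was made.

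Contact with H3K4me3 is limited in gaps by the rule, which leaves no H3K4me3 region of both replicates there. In gaps 12.6% (67 peaks) of the single-library peaks of H3K27me3 replicate 1 overlapped a peak of H3K4me3 replicate 1, and outside 42.1% did. For replicate 2 the shares were 0.640% in gaps (3 peaks) and 1.59% outside. Among peaks that touched no H3K4me3 peak of either library, 31.8% of replicate 1 peaks in gaps and 30.1% outside were unshared, and 29.0% and 25.4% of replicate 2 peaks. The distance between gaps and outside in replicate 2 was smaller there than over all its peaks.

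Single-library peaks were narrow and low in fold, but strong ones occurred as well. Their median width in gaps was 370 bp in replicate 1 and 323 bp in replicate 2, against 861 and 723 bp for the shared peaks in gaps. In the highest of 4 equal groups by fold, 15.2% of replicate 1 gap peaks were unshared, against 5.78% outside, and 6.79% of replicate 2 gap peaks, against 2.91% outside. In the lowest group the values were 60.1% in gaps and 68.1% outside in replicate 1, and 46.3% and 28.5% in replicate 2. The bases in both replicates were 0.547 of those in either replicate inside gaps and 0.602 of them outside.

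**Figure D5:**
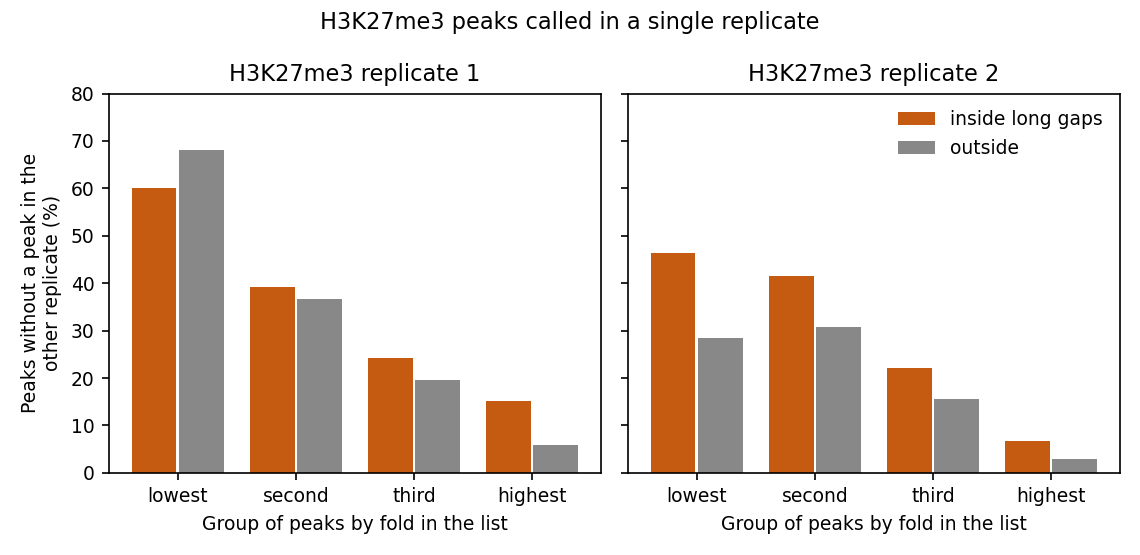
Percent of H3K27me3 peaks without a peak in the other replicate (vertical axis), in 4 equal groups of each list by fold from lowest to highest (horizontal axis), inside long gaps and outside, for replicate 1 (left) and replicate 2 (right). Gap peaks exceed the others in all groups but the lowest of replicate 1, where the values are 60.1% and 68.1%.

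H3K4me3 peaks called in a single library were fewer per Mb in gaps than outside. There were 5.59 per Mb of gap in replicate 1, against 18.9 outside, and 1.62 in replicate 2, against 5.66 outside. The rule favours this, since gaps were chosen for a lack of H3K4me3. Replicate 1 gave 77.5% of them. No gap held more than 6. Their median width was 310 bp in replicate 1 and 288 bp in replicate 2, and their median fold was in the 23.1st and 34.4th percentile of the lists, so they were narrow and low-ranking. A −log10 q of at least 5 was reached by 88.6% of those of replicate 1, against 95.9% of the peaks of that list outside gaps. For replicate 2 the shares were 35.5% in gaps and 72.1% outside. Gap peaks thus reached it less often in both libraries.

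Part of those peaks lay on H3K27me3. A peak of either H3K27me3 library overlapped 39.3% of the replicate 1 H3K4me3 peaks in gaps (145 of 369) and 57.0% of the replicate 2 ones (61 of 107). The same shares for H3K4me3 peaks outside gaps were not computed, so the overlap cannot be called particular to gaps. Of the members, 108 (8.33%) overlapped an H3K4me3 peak of either library, and the other 1188 touched none of any list. Peaks that reach into a gap across its edge count here, beside those wholly inside. Outside gaps, where H3K4me3 regions of both replicates also count, 29.1% of the H3K27me3 regions overlapped an H3K4me3 peak of either library. Members with such a peak were longer, with a median of 894 bp against 526 bp for the others, and the part of length in this overlap was not tested.

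Gaps that held a single-library H3K4me3 peak had more H3K27me3. The 233 such gaps had 23.1 members per Mb and 2.20% coverage, and the 142 gaps without had 13.4 per Mb and 1.22%. Members were missing from 24.0% of the gaps with such a peak and from 48.6% of those without. Both kinds had nearly the same length, with medians of 142 and 143 kb.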

How the data were processed

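Per the submitters' processing notes, MACS2, Bowtie2, fastp, Picard, deepTools and SAMtools were used. No source used here states their versions, the control, the calling thresholds or the genome build. A separate list of peaks was deposited for each of 4 libraries, narrow for H3K4me3 and broad for H3K27me3, and read depth is unknown. The peak names carry different tags (merge, uniq, subsample and S011), so the libraries may have been handled differently before calling. The fold enrichment of a peak is a ratio over background as the authors deposited it, used only to rank peaks within a list. The −log10 p and −log10 q are those the authors deposited, and the deposited score was not used.

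Peak positions were processed in Python 3.11.15 with numpy 2.4.6, intervals of shares (Wilson, 95%) and rank correlations with scipy 1.17.1, and figures with matplotlib 3.10.9. Chromosomes were taken to end at their last peak. Peaks were shared with at least 1 bp in common. Coverage counts all gap bases under H3K27me3, including regions crossing an edge, and members and peaks counted in gaps lay wholly inside. The code was checked on simulated peaks against a count base by base. Gaps and regions were named by rank (length, members, coverage, distance from the edge), and the gap threshold, members and measures were chosen with earlier results of these data known. The alternatives tried are in the closing section. The gene table at hand lies on the assembly ASM3414082v1 and the lists name no build, so no genes were assigned.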

Additional observations from a re-analysis of the deposited data

How the results depend on the processing

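H3K27me3 coverage was lower in long gaps than in the rest of the genome under all 13 settings that redefined gaps, regions or peaks, at 0.243 to 0.534 times the level outside. No paired analysis was possible because the results come from no test. Of 167 recomputed values, 86 stayed close to the reported value and 81 did not, judged by the spread between replicates, for counts by a factor of 1.5 and for shares of unshared peaks by their Wilson interval; the cause was not tested except where fewer peaks or gaps entered by construction. Depth in reads is unknown, so what weaker peaks add cannot be judged.

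With gaps of at least 50 kb there were 1148 gaps of 119 Mb in all and 3410 members, at 28.7 per Mb in gaps and 51.2 outside, covering 2.95% of gaps, with 11.1% of members reaching 2000 bp, 78.7% having a neighbour within 5 kb and 10.5 single-library H3K4me3 peaks per Mb. With at least 200 kb there were 94 gaps of 28.4 Mb and 438 members, at 15.4 per Mb in gaps and 46.4 outside, covering 1.38%.

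With H3K4me3 in either replicate, the gaps summed to 46.6 Mb and held 678 members, at 14.5 per Mb in gaps and 48.2 outside, covering 1.29%, with 7.52% reaching 2000 bp and 29.8% of replicate 1 gap peaks unshared. Single-library H3K4me3 peaks are absent there by construction. With both marks in either replicate, the same 46.6 Mb had 22.4 members per Mb, 66.7 regions per Mb outside, coverage of 2.40% in gaps and 8.65% outside, 10.99% of at least 2000 bp and 29.8% of replicate 1 gap peaks unshared.

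With only peaks at a −log10 q of 5 or more kept for both marks, gaps summed to 83.8 Mb and held 321 members, at 3.83 per Mb in gaps and 8.53 outside, with coverage of 0.907% and 2.36%, a median of 1715 bp, 40.8% reaching 2000 bp, 54.2% with a neighbour within 5 kb, 11.97 single-library H3K4me3 peaks per Mb, and 53.9% and 25.2% of gap peaks unshared in H3K27me3 replicates 1 and 2. With that threshold for H3K27me3 alone there were 153 members, at 2.32 per Mb in gaps and 8.58 outside, with coverage of 0.568% and 2.34%, a median of 1649 bp, 39.9% reaching 2000 bp, 43.8% with a neighbour, and 58.3% and 30.4% unshared.

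Counting regions with at least 1 bp inside gave 21.3 members per Mb. Joining H3K27me3 pieces within 500 bp gave 15.9 per Mb in gaps and 38.0 outside, a median of 624 bp, 14.9% reaching 2000 bp and 63.3% with a neighbour. Neighbours within 2 kb and 10 kb were found for 64.9% and 79.9%. Requiring 50% of both peaks in common left 56.5% and 58.5% of gap peaks unshared in replicates 1 and 2.

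Leaving out 1 library at a time gave 287 to 375 gaps, 49.5 to 66.0 Mb and 829 to 1702 members (829 without H3K4me3 replicate 2). There were 16.7 to 25.8 members per Mb in gaps and 48.2 to 59.2 regions outside. Coverage was 1.52 to 2.77% in gaps and 5.19 to 7.77% outside. Medians were 522 to 617 bp, with 8.32 to 11.5% of members reaching 2000 bp and 72.8 to 77.0% with a neighbour. Unshared gap peaks were 29.5 to 33.3% and 27.8 to 28.5% in replicates 1 and 2. Single-library H3K4me3 peaks numbered 1.27 to 7.22 per Mb. Gaps drawn from 1 H3K4me3 library hold no peak of that library by construction, and peaks of the other were still counted. The 1.27 without H3K4me3 replicate 2 therefore counts replicate 2 peaks alone. Likewise the 5.20 without H3K4me3 replicate 1 counts replicate 1 peaks alone.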
